A study of Mus musculus with 7 samples.

Results

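The immediate early factors of the AP-1, Egr and Nr4a families were examined in tumour-associated macrophages. The cells were taken 21 days after implantation of MC38, a colon carcinoma line of the mouse, into C57BL/6J mice fed a high-fat diet. The 10 genes Fos, Fosb, Fosl2, Jun, Junb, Atf3, Egr1, Nr4a1, Nr4a2 and Nr4a3 were chosen by symbol, out of 53379 genes in the count table, and all 10 passed the filter on low counts. The libraries came from 4 wild-type mice and 3 mice knocked out for Gpr65, a G-protein-coupled receptor that senses extracellular protons and signals through cAMP. Every mouse of both groups carried an MC38 tumour and received the high-fat diet, and cells were sorted on CD45, CD11b and F4/80. Which cells lack Gpr65 besides the macrophages, the age of the mice and the way the tumours were dissociated are not given in the sources used here.

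Immediate early genes are switched on within minutes of a signal, without new protein synthesis, by kinases that act on serum response factor, CREB and AP-1 proteins already bound at their promoters. Fos and Jun proteins pair through leucine zippers to form the AP-1 factor, Egr1 is a zinc-finger factor, and the Nr4a proteins are orphan nuclear receptors. In macrophages these factors mark recent stimulation by growth factors, cytokines, microbial products or cAMP, and they are also known to be induced by cell handling.

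The total count lay between 22449772 and 30483733 per library, and the 10 genes together held between 1.08% and 1.22% of it. Gpr65 measured 65.2 to 112 CPM (the count relative to the TMM-scaled library total) in the wild-type and 0.683 to 1.103 CPM in the knockout libraries (edgeR log2 fold change -6.62, SE 0.30, adjusted p = 8e-05). The macrophage markers of both groups were abundant, with C1qb between 5317 and 11741 CPM. Among markers of other cells, summed levels lay between 128.9 and 240.1 CPM for neutrophils and 22.8 and 504 CPM for T and NK cells. They lay between 49.9 and 464 CPM for B cells, 32.8 and 217 CPM for dendritic cells and 95.2 and 385 CPM for fibroblast and endothelial genes. MC38 and epithelial genes summed to between 41.7 and 447 CPM, and Krt8, Krt19, Krt20, Cldn3 and Cldn4 of that list did not pass the filter. None of these marker genes was called, but 7 of 8 neutrophil markers (median log2 fold change -1.81) and 8 of 8 monocyte markers (median -0.75) had a negative log2 fold change, while 10 of 11 T and NK cell markers had a positive one (median 1.08, and -0.87 without knockout 3). The knockout 1 library stood apart on the leading principal component, which held 44.2% of the variance of the 500 most variable genes. Of the tested genes, 940 had no count in it, while the other libraries lacked between 51 and 281.

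None of the 10 factors passed edgeR's quasi-likelihood test for a difference between the genotypes. At an adjusted p under 0.05 edgeR called 0 of the 10, where 0.037% of the 16234 tested genes were called (0.0246% higher and 0.0123% lower). At an unadjusted p under 0.05 it found 0 of the 10, where 5.37% of the tested genes passed (2.57% higher and 2.79% lower). DESeq2 and limma voom, the latter with library weights, also called 0 of the 10. The weighted limma voom fit gave Fosb a log2 fold change of 0.87 (unadjusted p = 0.010, adjusted p = 0.34). In all 10 the wild-type and knockout values overlapped, whereas 6.12% of the tested genes had groups that did not. The log2 fold change was positive for 8 and negative for 2, with a median of 0.13, beside -0.0016 over all tested genes, 49.7% of which were positive. The sign of most of the 10 depended on single libraries, and without knockout 3 only 4 of the 10 were positive. The median of the 10 ranged from -0.037 without knockout 3 to 0.30 without knockout 1, and with scaling by the total count it was -0.0017, with 5 of 10 positive.

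**Figure D1:**
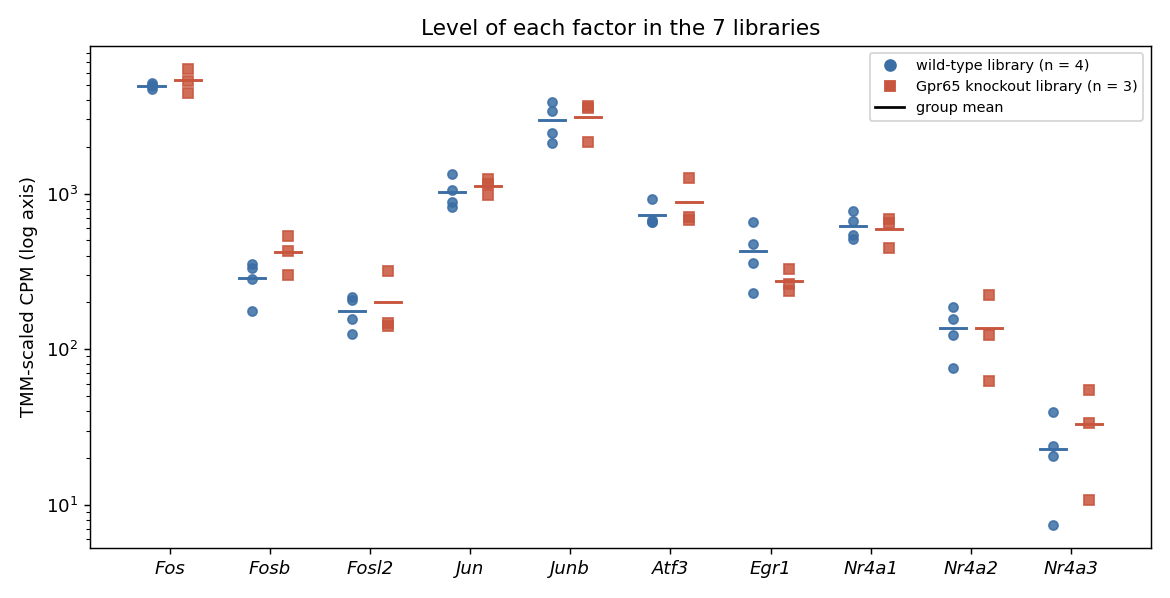
TMM-scaled CPM (log axis) of the 10 factors in each of 4 wild-type (circles) and 3 Gpr65 knockout libraries (squares), with a line at each group mean. For each gene the circles and squares overlap, from Fos between 4457 and 6344 CPM down to Nr4a3 between 7.45 and 54.4 CPM.

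Fos was the most abundant of the 10 and ranked 14 among all tested genes by mean CPM. Its protein cannot bind DNA as a homodimer and acts with a Jun partner. It measured 4944, 5133, 4990 and 4702 CPM in wild-type mice 1 to 4, and 4457, 6344 and 5323 CPM in knockout mice 1 to 3. The lowest and the highest value both lay in the knockout group, so the wild-type values fell inside the knockout range. Knockout minus wild-type, this came to 0.12 on the log2 scale (SE 0.20, edgeR adjusted p = 1.00), with a 95% interval of -0.32 to 0.56, which includes up to 1.48-fold higher and down to 0.801-fold. Scaled by the total count alone, Fos varied only 1.11-fold over the 7 libraries, between 4820 and 5367 CPM, and its log2 fold change was -0.01. With TMM scaling it varied 1.42-fold, and knockout 2, where Fos was highest, had the smallest scaling factor, 0.807 against 0.940 to 1.12 elsewhere. Of all tested genes, 8.08% had a smaller within-group standard deviation than Fos (0.17 on the log2 scale, beside a median of 0.40).

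Fos (ENSMUSG00000021250) lies at 85473890 to 85477273 of chromosome 12 (GRCm38, plus strand), 12.8 Mb from Gpr65 on the same chromosome (98268635 to 98276644). The 250 bases before its start are shown because they hold the core of the cAMP response element (CRE), TGACG on either strand, through which CREB and ATF proteins bind. Capitals mark the CRE cores, at -129 to -125 and -66 to -62 from the start, and the sequence is RefSeq's for GRCm38.p6.
Fos upstream (chr12:85473640-85473889, plus strand): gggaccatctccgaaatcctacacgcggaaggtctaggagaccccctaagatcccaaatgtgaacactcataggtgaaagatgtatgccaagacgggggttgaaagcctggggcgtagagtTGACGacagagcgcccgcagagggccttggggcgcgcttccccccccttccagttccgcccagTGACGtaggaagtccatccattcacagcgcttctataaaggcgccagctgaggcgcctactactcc
A CRE core was present in 17.8% of 32851 windows of the same length in the promoter table, and in 7 of the 9 windows of these factors. The Fosl2 window, which lacked it, lies wholly within annotated exons of Fosl2. Those of Atf3 and Fosb overlap annotated exons of their genes by up to 7 and 6 bases. The only CRE core of the Atf3 window, at -7 to -3, lies in that overlap. The letters TATAAA at -33 to -28 were found in the Fos window and in no other of the 9, and in 7.59% of all windows.

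Fosb (chromosome 7, 19302696 to 19310051), a Fos paralogue with the same zipper partners, came closest to a difference among the AP-1 genes and did not pass. It measured 175, 332, 284 and 353 CPM in wild-type and 299, 427 and 534 CPM in knockout mice. The knockout 1 value lay within the wild-type range, and those of knockout 2 and 3 lay above it. The log2 fold change was 0.55 (SE 0.28, 95% interval -0.08 to 1.19, edgeR adjusted p = 0.98). It was positive in each fit without 1 library, between 0.34 without knockout 3 and 0.73 without knockout 1, where its adjusted p was 0.44.

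Fosl2 (chromosome 5, 32135801 to 32157842), which encodes Fra-2, measured 125, 218, 156 and 206 CPM in wild-type and 141, 148 and 319 CPM in knockout mice. Only knockout 3 lay above the wild-type range, and the log2 fold change of 0.20 (SE 0.32, 95% interval -0.53 to 0.93) turned to -0.29 without that library. Fosl1, the remaining member of the family, had between 0.091% and 0.538% of the summed Fos-family CPM per kilobase of exon, where Fos itself had 94.9% to 98.0%.

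Jun, the principal AP-1 partner of Fos, measured 1346, 825, 1050 and 889 CPM in wild-type and 1150, 1242 and 984 CPM in knockout mice. The knockout values all lay within the wild-type range, and the log2 fold change was 0.13 (SE 0.22, 95% interval -0.36 to 0.62, edgeR adjusted p = 1.00). Junb (chromosome 8, 84974484 to 84978718), which can pair with Fos but activates many AP-1 sites less strongly than Jun, measured 2108, 3883, 2435 and 3402 CPM in wild-type and 2151, 3632 and 3563 CPM in knockout mice. Both groups spanned low and high values, with wild-type 1 and knockout 1 the lowest, and the log2 fold change was 0.08 (SE 0.29, 95% interval -0.57 to 0.72).

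Per kilobase of exon, Junb made up 68.4% to 86.7% of the summed Jun and Junb level in wild-type libraries and 72.2% to 83.4% in knockout libraries. Jund, the third member, is listed at 0 counts in all 7 libraries, as are Egr2 and the mitochondrial genes mt-Co2 and mt-Atp6. Since mt-Co2 and mt-Atp6 are used in nearly all cells, a 0 in this table is no measure of the gene, and Jund and Egr2 stayed out of the comparison. Jun overlaps its antisense gene Junos over 689 bases and Junb overlaps Prdx2 on the other strand over 351 bases. Whether reads were counted by strand is not given, and the counts of Junos and Prdx2 came to 1.96% and 3.34% of those of Jun and Junb.

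The 250 bases before Jun (ENSMUSG00000052684, chromosome 4, 95049034 to 95052222) are shown beside those of Fos because they held no TGACG on either strand, and they therefore have no capitals.
Jun upstream (chr4:95052223-95052472, minus strand): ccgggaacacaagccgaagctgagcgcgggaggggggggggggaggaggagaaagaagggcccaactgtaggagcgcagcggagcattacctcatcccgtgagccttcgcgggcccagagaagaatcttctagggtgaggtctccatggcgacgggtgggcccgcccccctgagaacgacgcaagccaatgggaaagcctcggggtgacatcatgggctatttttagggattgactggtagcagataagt
The full CRE TGACGTCA, the AP-1 site TGACTCA and the Nr4a monomer site AAAGGTCA, each searched on both strands, were found in none of the 9 windows of these factors, against 1.55%, 4.46% and 1.34% of all windows. The CArG box, at which serum response factor binds, was found in none of the 9 either, against 1.47% of all windows. The window reaches only 250 bases upstream and says nothing of sites farther away. The search took exact letters only, so variants of these sites were not counted. The Jun window holds such a variant of the full CRE, tgacatca, with an a in place of the G after TGAC. The absence of a match is therefore not the absence of a site.

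Atf3 (chromosome 1, 191170296 to 191218039), which encodes a stress-induced zipper protein that pairs with Jun proteins, measured 681, 917, 661 and 654 CPM in wild-type and 675, 1252 and 711 CPM in knockout mice. One library of each group, wild-type 2 and knockout 2, was high, and the other 5 lay between 654 and 711 CPM. The log2 fold change was 0.27 (SE 0.26, 95% interval -0.31 to 0.85), and -0.08 without knockout 2.

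Egr1 (chromosome 18, 34859823 to 34864984) was the factor with the most negative fold change and did not pass. It measured 357, 661, 229 and 474 CPM in wild-type and 262, 330 and 236 CPM in knockout mice. Wild-type 3 had the lowest value of the 7, while wild-type 1, 2 and 4 lay above all knockout mice. The log2 fold change was -0.64 (SE 0.33, 95% interval -1.39 to 0.11, edgeR adjusted p = 0.99). It was negative in each fit without 1 library, from -0.87 without wild-type 3 to -0.36 without wild-type 2. The libraries high in Egr1, wild-type 2 and 4, were also high in the summed monocyte markers (4576 and 1620 CPM, against 388 to 946 CPM elsewhere), of which Chil3 made up 3241 and 707 CPM, while Ccr2 was highest in wild-type 1 at 871 CPM. They were high in the epithelial gene Cdh1 as well (375 and 437 CPM, against 37.6 to 167 CPM), while Epcam lay between 1.61 and 5.30 CPM in all 7 libraries. The part of these genes' source cells in the Egr1 level was not tested. In bulk libraries, more cells of a type and more RNA per cell cannot be told apart.

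Of the summed level of Egr1, Egr3 and Egr4 per kilobase, Egr1 supplied 98.2% to 99.7% and Egr3 between 0.278% and 1.81%. Egr4 had 20 counts over all libraries. Egr2 stayed out, so the share of Egr1 in the whole family is not known. The Nab genes, whose products bind Egr proteins as corepressors, had log2 fold changes of -0.12 (SE 0.21) for Nab1 and 0.13 (SE 0.16) for Nab2.

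The 3 Nr4a receptors varied between mice within both genotypes. Nr4a1, also called Nur77, measured 541, 669, 772 and 510 CPM in wild-type and 451, 690 and 649 CPM in knockout mice, with a log2 fold change of -0.06 (SE 0.22, 95% interval -0.57 to 0.44). Nr4a2, or Nurr1, measured 75.7, 188, 157 and 124 CPM in wild-type and 62.7, 123 and 225 CPM in knockout mice, with a log2 fold change of 0.01 (SE 0.43, 95% interval -0.96 to 0.97). Nr4a3, or Nor1, measured 7.45, 39.8, 24.0 and 20.7 CPM in wild-type and 10.8, 33.8 and 54.4 CPM in knockout mice, with a log2 fold change of 0.52 (SE 0.59, 95% interval -0.82 to 1.86). For Nr4a2 and Nr4a3 the same 2 libraries were lowest, wild-type 1 and knockout 1, and knockout 3 was the highest. The ratio of the highest to the lowest library was 1.71 for Nr4a1, 3.59 for Nr4a2 and 7.30 for Nr4a3. Without knockout 3 the log2 fold change was -0.55 for Nr4a2 and -0.04 for Nr4a3.

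**Figure D2:**
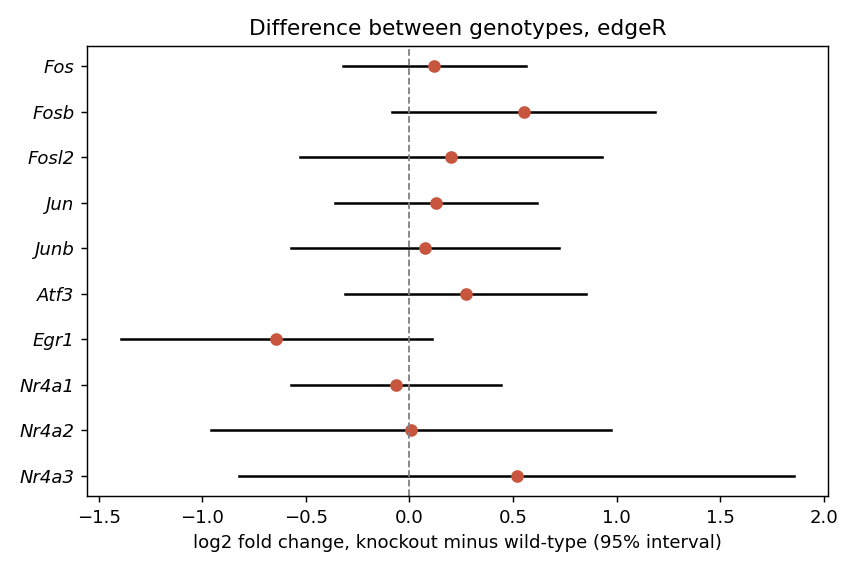
Log2 fold change of each factor, knockout minus wild-type, from the edgeR fit (points), with its 95% interval (lines) and a dashed line at 0. Every interval includes 0, and the widest is that of Nr4a3, from -0.82 to 1.86.

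The bases before the RefSeq starts of the Nr4a genes are shown because each of these windows held the CRE core at 4 positions, which 0.137% of all 32851 windows did at 4 or more. Capitals mark the CRE cores, and the sequences are RefSeq's for GRCm38.p6. For Nr4a3 the first 98 of the 250 bases are printed, with 3 of its 4 CRE cores, because the other 152 lie in an annotated exon of the gene. The Nr4a1 window lies before the start of a shorter transcript, inside an intron of the gene's longer one.
Nr4a1 upstream (chr15:101266596-101266845, plus strand): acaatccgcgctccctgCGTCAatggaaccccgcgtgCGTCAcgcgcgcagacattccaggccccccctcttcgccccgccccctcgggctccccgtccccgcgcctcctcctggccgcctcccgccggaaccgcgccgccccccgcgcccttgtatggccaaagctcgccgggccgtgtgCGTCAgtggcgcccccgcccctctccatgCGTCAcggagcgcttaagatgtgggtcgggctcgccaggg
Nr4a2 upstream (chr2:57124004-57124253, minus strand): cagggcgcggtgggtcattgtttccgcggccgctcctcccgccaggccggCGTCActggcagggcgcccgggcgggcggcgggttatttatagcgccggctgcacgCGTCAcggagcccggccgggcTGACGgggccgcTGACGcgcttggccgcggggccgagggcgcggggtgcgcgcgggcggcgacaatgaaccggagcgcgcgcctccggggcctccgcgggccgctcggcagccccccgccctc
Nr4a3 upstream (chr4:48045055-48045152, plus strand): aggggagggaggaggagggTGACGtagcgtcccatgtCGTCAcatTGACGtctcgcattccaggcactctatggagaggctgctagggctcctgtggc
Nr4a1 (ENSMUSG00000023034), Nr4a2 (ENSMUSG00000026826) and Nr4a3 (ENSMUSG00000028341) lie at 101254269 to 101274795 of chromosome 15, 57106830 to 57124003 of chromosome 2 and 48045153 to 48086447 of chromosome 4 (GRCm38). A match of these letters is a description of the sequence and does not show that a protein binds there.

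Of the 45 pairs of factors, 34 had a positive Pearson correlation of log2 CPM over the 7 libraries, with a median of 0.41. With scaling by the total count 22 were positive, with a median of -0.021, so the count depended on the scaling. Nr4a2 and Nr4a3 were the most alike, with r = 0.92 (exact permutation p = 0.0058) and Spearman's rho = 0.86 (exact permutation p = 0.024). The adjusted values over 55 relations, the 45 pairs and the 10 factors against the heat shock genes, were 0.079 and 0.15, so the correlation did not pass. It was 0.97 for deviations from the group means, 0.89 without knockout 1 and 3, the libraries farthest from the median of Nr4a2, and 0.88 with scaling by the total count. Of all tested genes, 0.370% were as closely correlated with Nr4a2 as Nr4a3 was. These values share a library, its depth and its scaling.

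Junb, Fosb and Fosl2 varied with Nr4a3 as well, and none of these correlations passed. The Pearson correlation with Nr4a3 was 0.87 for Junb (exact permutation p = 0.010, adjusted p = 0.095), 0.86 for Fosb (exact permutation p = 0.010, adjusted p = 0.095) and 0.79 for Fosl2 (exact permutation p = 0.032, adjusted p = 0.16). Spearman's rho was 0.86 for Junb (exact permutation p = 0.024), 0.75 for Fosb (exact permutation p = 0.066) and 0.86 for Fosl2 (exact permutation p = 0.024). The 2 libraries farthest from the median of Junb, Fosb or Fosl2 were then left out, a different pair for each. This gave r = 0.54 for Junb (without wild-type 1 and knockout 1) and 0.50 for Fosb (without wild-type 1 and knockout 3). For Fosl2 r was 0.54 (without wild-type 2 and knockout 3), so each relation rested in part on the libraries left out. Jun ran the other way, at r = -0.73 with Fosl2 (exact permutation p = 0.062, adjusted p = 0.22) and rho = -0.86 (exact permutation p = 0.024), and r was -0.95 without wild-type 2 and knockout 3.

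The correlations of Fos depended on the scaling. The highest Pearson correlation of Fos was with Atf3, at r = 0.87 (exact permutation p = 0.025, adjusted p = 0.15) and rho = 0.79 (exact permutation p = 0.048). That correlation was 0.48 without knockout 1 and 2 and turned to -0.29 with scaling by the total count. With Nr4a3, Fos had the same rho of 0.79 (exact permutation p = 0.048) and r = 0.56 (exact permutation p = 0.20, adjusted p = 0.37), which was 0.62 without knockout 1 and 2 and -0.25 with scaling by the total count. Egr1 had no positive correlation with another factor above r = 0.48, the value for Junb (exact permutation p = 0.28, rho = 0.32, exact permutation p = 0.50, and r = 0.61 without wild-type 1 and knockout 1). Its largest correlation in size was negative, r = -0.50 with Jun (exact permutation p = 0.25, adjusted p = 0.46, rho = -0.32).

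**Figure D3:**
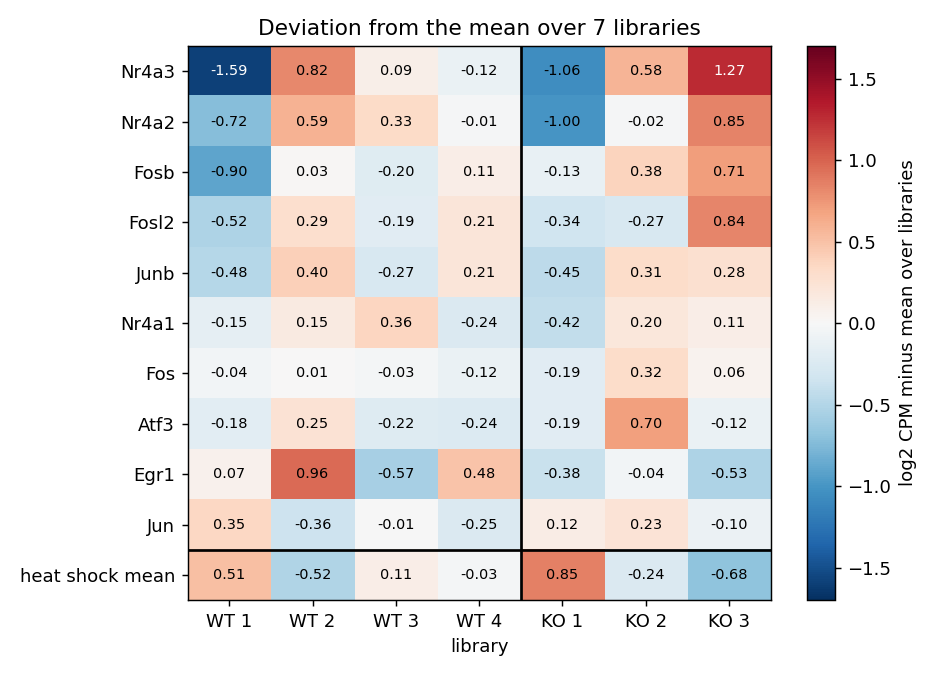
Deviation of log2 CPM from the mean over the 7 libraries (colour and printed value) for the 10 factors and, in the bottom row, the mean of 13 heat shock genes, with a line between the 4 wild-type (WT) and 3 knockout (KO) libraries. Nr4a3, Nr4a2 and Junb are negative in WT 1 and KO 1, where the heat shock mean is positive at 0.51 and 0.85, and Nr4a3 reaches 1.27 in KO 3, where the heat shock mean is -0.68.

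Heat shock genes encode chaperones and are induced by heat and protein damage. With TMM scaling they were negatively correlated with every factor but Jun over the 7 libraries, most strongly with Nr4a2, Nr4a3 and Junb. None of the 10 relations with them passed after adjustment. The mean log2 CPM of the 13 listed genes was 6.94, 5.92, 6.54 and 6.41 in wild-type and 7.29, 6.19 and 5.75 in knockout mice. It was highest in knockout 1 and wild-type 1, the libraries lowest in Nr4a2 and Nr4a3, and lowest in knockout 3. Its Pearson correlation was -0.94 with Nr4a2 (exact permutation p = 0.00397), -0.93 with Nr4a3 (exact permutation p = 0.0036) and -0.90 with Junb (exact permutation p = 0.0034), each with an adjusted p of 0.073. Spearman's rho was -0.86 for Nr4a2 (exact permutation p = 0.024), -0.93 for Nr4a3 (exact permutation p = 0.0067) and -0.86 for Junb (exact permutation p = 0.024). Without the 2 libraries farthest from each gene's median, r was -0.82 for Nr4a2, -0.97 for Nr4a3 and -0.73 for Junb. Fosl2 had r = -0.80 (exact permutation p = 0.029, adjusted p = 0.16) and rho = -0.86 (exact permutation p = 0.024). Fosb had r = -0.71 (exact permutation p = 0.067, adjusted p = 0.22) and rho = -0.79 (exact permutation p = 0.048). For Nr4a1, Fos, Atf3 and Egr1, r was -0.65, -0.59, -0.43 and -0.26. Jun had a positive correlation of 0.58 (exact permutation p = 0.17, adjusted p = 0.36), with rho = 0.57 (exact permutation p = 0.20) and r = 0.30 without wild-type 1 and 2. Of all tested genes, 0.339%, 0.425% and 0.930% had a correlation with the heat shock mean as negative as those of Nr4a2, Nr4a3 and Junb. With scaling by the total count, r was -0.75 for Nr4a2, -0.88 for Nr4a3, -0.79 for Junb, -0.44 for Fosl2 and -0.55 for Fosb. On that scale it was -0.24 for Nr4a1, -0.38 for Atf3, -0.045 for Egr1 and 0.83 for Jun, and turned positive for Fos, at 0.22.

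The heat-inducible genes Hspa1a and Hspa1b varied widely between libraries of both groups. Hspa1b measured 845, 58.1, 390 and 241 CPM in wild-type and 777, 120.5 and 89.0 CPM in knockout mice. Its value is uncertain, since Hspa1a and Hspa1b are near-identical copies between which reads can be split. Hsp90ab1 and Hspa8, which are made in unstressed cells, measured 979 to 1083 and 508 to 630 CPM in wild-type and 877 to 1464 and 405 to 621 CPM in knockout mice.

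T and NK cell markers shared their lowest and highest libraries with Nr4a2 and Nr4a3, which lymphocytes express after stimulation. Their summed level was 31.5 and 22.8 CPM in wild-type 1 and knockout 1, and 504 CPM in knockout 3. In wild-type 2, 3 and 4 and knockout 2 it was 80.1, 111, 117 and 68.4 CPM. There the order differed, with Nr4a2 at 188, 157, 124 and 123 CPM and Nr4a3 at 39.8, 24.0, 20.7 and 33.8 CPM. The part of T cells, and that of cell handling, in the levels of these factors was not tested.

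**Figure D4:**
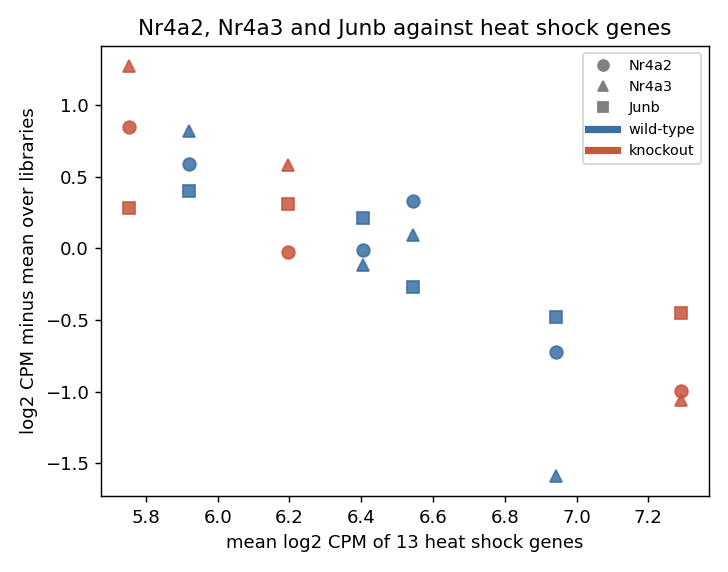
Log2 CPM of Nr4a2 (circles), Nr4a3 (triangles) and Junb (squares), as the deviation from the mean over libraries, against the mean log2 CPM of 13 heat shock genes in each wild-type (blue) and knockout (red) library. The points descend from knockout 3, at a heat shock mean of 5.75, to wild-type 1 and knockout 1, at 6.94 and 7.29.

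Compared per kilobase of exon, the factors spanned a range from Fos at 2180 ± 258 to Nr4a3 at 4.56 ± 2.77 CPM per kilobase (SD over 7 libraries). The order was Fos, Junb (1315 ± 331), Atf3 (368 ± 103), Jun (335 ± 59.1), Nr4a1 (174 ± 32.5), Egr1 (81.3 ± 34.9), Fosb (55.0 ± 18.2), Nr4a2 (33.6 ± 14.3), Fosl2 (19.4 ± 6.96) and Nr4a3. For 7 of the 9 neighbouring pairs the first exceeded the second in all 7 libraries (exact permutation p = 0.0156, the smallest that 7 libraries allow, adjusted p = 0.020 over 9 pairs). Atf3 and Jun did not differ beyond their spread, with Atf3 higher in 4 of 7 libraries (exact permutation p = 0.48), nor did Egr1 and Fosb, with Egr1 higher in 6 of 7 (exact permutation p = 0.14). With the longest transcript in place of all exons, Fosb came before Egr1 and the other 8 kept their places. With that length Jun exceeded Nr4a1 (exact permutation p = 0.031) and Nr4a2 exceeded Fosl2 (exact permutation p = 0.078), each in 6 of 7 libraries. Nr4a2 thus stayed before Fosl2 by mean, but their difference no longer passed.

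**Figure D5:**
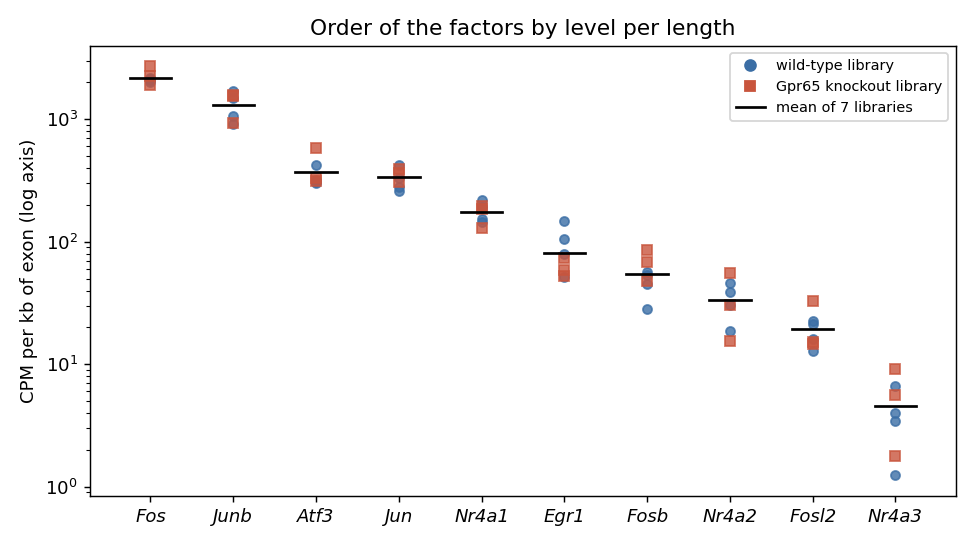
CPM per kilobase of exon (log axis) of the 10 factors in the wild-type (circles) and knockout (squares) libraries, with a line at the mean of all 7. The means descend from 2180 for Fos to 4.56 for Nr4a3, and the points of Atf3 and Jun, and of Egr1 and Fosb, overlap.

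The signalling machinery upstream of these factors showed no called gene, where edgeR called only 0.037% of all tested genes. Of 17 MAP kinase route genes tested 0 were called by edgeR, 8 had a positive and 9 a negative log2 fold change, and the median was -0.02. Map2k3, a kinase that activates p38, had the only unadjusted p under 0.05 of that list (5.88% of it, beside 5.37% of all tested genes). Its edgeR log2 fold change was -0.34 (SE 0.14, unadjusted p = 0.039, adjusted p = 0.92). Map2k3 measured 116 to 141 CPM in wild-type and 95.5 to 104 CPM in knockout mice. Mapkapk2, a kinase downstream of p38, had 0.06 (SE 0.19). Serum response factor and its partners had 0 of 6 called, 3 positive and 3 negative, and Srf measured 45.9 to 60.3 CPM in wild-type and 35.1 to 62.6 CPM in knockout mice.

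Gpr65 signals through cAMP, and CREB and its coactivators had 0 of 7 called (beside 0.037% of all tested genes), with a median of -0.02. The CREB coactivator gene Crtc1 had a log2 fold change of 0.99 (SE 0.28, unadjusted p = 0.0066, edgeR adjusted p = 0.74), at 6.98 to 11.6 CPM in wild-type and 12.1 to 21.9 CPM in knockout mice. Its groups did not overlap, as in 6.12% of all tested genes, and it is named here because it had the smallest unadjusted p of that list. The cAMP-CREB targets outside the 10 factors had 0 of 14 called, 9 positive and 5 negative, with a median of 0.13. Pde4d, a cAMP phosphodiesterase gene, had their only unadjusted p under 0.05 (7.14% of the list, beside 5.37% of all tested genes). Its edgeR log2 fold change was -1.21 (SE 0.51, adjusted p = 0.92). Among these targets Dusp1, a MAP kinase phosphatase, measured 2004, 2613, 2338 and 2000 CPM in wild-type and 2196, 4650 and 2870 CPM in knockout mice. Knockout 2 was far above the others in Dusp1, and its log2 fold change was 0.53 (SE 0.27, 95% interval -0.08 to 1.14). The matrix glycoprotein gene Thbs1 had -0.65 (SE 0.29), the angiogenic factor gene Vegfa 0.18 (SE 0.34) and Rgs2, a regulator of G-protein signalling, 0.05 (SE 0.22).

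Other immediate early genes were not called either. edgeR called 0 of 45 tested, beside 0.037% of all tested genes. Of the 45, 27 were positive and 18 negative, and the median log2 fold change was 0.06. An unadjusted p under 0.05 was found for 4 of the 45 (8.89%, beside 5.37% of all tested genes), which were Socs3, Id2 and Klf2 with a positive and Gadd45a with a negative log2 fold change. Socs3, an inhibitor of cytokine signalling, measured 645 to 818 CPM in wild-type and 752 to 1627 CPM in knockout mice (log2 fold change 0.79, SE 0.26, edgeR adjusted p = 0.81). Klf2 had 0.62 (SE 0.23), Id2 0.54 (SE 0.20) and Gadd45a -0.91 (SE 0.28). The most abundant of the list, apart from Dusp1, had log2 fold changes of 0.06 (SE 0.22) for Rgs1, 0.23 (SE 0.17) for the mRNA decay factor Zfp36 and -0.16 (SE 0.20) for the anti-apoptotic Mcl1.

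The remaining AP-1 and small Maf genes had 0 of 15 called by edgeR (beside 0.037% of all tested genes), 9 positive and 6 negative, with a median of 0.01. The stress-response factor gene Atf4 had a log2 fold change of -0.06 (SE 0.17). Mafk had the only unadjusted p under 0.05 of that list (6.67% of it, beside 5.37% of all tested genes). Its edgeR log2 fold change was 0.42 (SE 0.16, unadjusted p = 0.026, adjusted p = 0.90). Mafk measured 53.2 to 75.1 CPM in wild-type and 79.4 to 90.8 CPM in knockout mice.

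The genes most like Fos in pattern over the 7 libraries, among 8549 of sufficient level, were Ifi204, Adipor1, Il10ra, Ypel3 and M6pr (Pearson's r 0.98 to 0.99). All 5 were highest in knockout 2, for example Il10ra at 809.5 CPM against 270.4 to 524 CPM elsewhere, the library with the smallest scaling factor. Those most like Egr1 were Nck1, S100a1, Cmas, Acot13 and Gpt2 (r 0.97 to 0.99), each highest in wild-type 2, as was Egr1. Those most like Nr4a1 were Mtmr9, Phf13, Ets2, Zbtb44 and Phtf1 (r 0.94 to 0.97), and Ets2 measured 178 CPM in knockout 1 and 324 CPM in wild-type 3, the libraries where Nr4a1 was lowest and highest. These genes were picked as the highest of 8549 correlations, so no p is given.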

How the data were processed

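Per the labels' protocols, libraries were built from polyA RNA of sorted macrophages with the Takara SMART-seq kit. The authors deposited raw read counts per gene, and BWA 0.7.12, cutadapt 1.15, DESeq2 1.24.0 and FastQC 0.11.5 are named, with the GRCm38 build, in the submitters' processing notes. The counting program and strand setting are not given in the sources used here. If BWA aligned the reads to the genome unspliced, reads across exon junctions would be undercounted. Genes were named by identifier from GENCODE M21 (53274 of 53379 matched).

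The comparison was fitted over all 16234 genes that passed edgeR's default filter, with edgeR 4.0.16 (quasi-likelihood F test, robust, TMM) in R 4.3.3, on 4 wild-type and 3 knockout libraries. P-values were adjusted by Benjamini-Hochberg, with a threshold of 0.05. The SE was the size of the log2 fold change over the square root of F. Log2 CPM used a prior count of 2. Alternatives included DESeq2 1.42.0, limma 3.58.1 (voom with library weights), other scalings and filters, a block and each library left out. On simulated counts for 16234 genes 12 of 100 genes with a 2-fold change and 54 of 100 with a 4-fold change were found by the fit, and 2 of its 68 calls were false. Exact permutation tests were two-sided. Each library counted as 1 mouse, since the labels name a numbered mouse for each. Libraries of a group differed beyond sampling noise (chi-square per degree of freedom 29.9 to 324), which by itself does not show separate mice.

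Genes named were the 10 factors and Gpr65, the highest-expressed genes of each list, and the 5 genes most like Fos, Egr1 and Nr4a1 with an average log2 CPM of at least 3; 1 gene the rule names is not reported here. Genes named for an unadjusted p were picked with their values in view. The 10 factors and the lists were chosen with earlier results of these data known. RefSeq promoters (GRCm38.p6) matched 9 of the 10.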

Additional observations from a re-analysis of the deposited data

Results flagged for a closer look

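Among 67 sets of 4 wild-type values, 3 held a library whose distance to its neighbour took up over 0.829 of the spread of the 4. By chance about 1 in 20 sets would. Atf3 was highest in wild-type 2, at 917 CPM against 654 to 681 CPM (0.897 of the range). The mean log2 CPM of the 3 tested Egr family and Nab genes was highest in wild-type 3, at 4.75 against 4.23 to 4.31 (0.859). Hsp90ab1 was highest in wild-type 4, at 1083 CPM against 979 to 996 CPM (0.832). Knockout sets, of 3 values, were not examined.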

How the results depend on the processing

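None of the 10 factors was called in any of 16 alternative fits or at an adjusted p under 0.1, and the smallest adjusted p was 0.34, for Fosb by limma voom. Unadjusted, Egr1 had an edgeR p of 0.032 with total count scaling, 0.047 without a filter and 0.013 without wild-type 3. Fosb had an unadjusted p of 0.017 with the mouse number as a block (edgeR), 0.010 by limma voom and 0.032 without knockout 1 (edgeR). Over all genes edgeR called 6, with 4 higher and 2 lower. The count was 11 without a filter (7 higher and 4 lower), 114 by DESeq2 (43 higher and 71 lower) and 3 to 14 without 1 library (2 to 9 higher and 1 to 5 lower, fewest without knockout 2 and most without knockout 1). With RLE or upper-quartile scaling 1 gene was called lower. With the mouse number as a block 1 gene was called, 0 higher and 1 lower, with 546 at an unadjusted p under 0.05. The numbers name different mice, and deviations of same-numbered mice correlated at 0.051 to 0.088, so they were not taken as pairs.

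The sign of small differences turned. With scaling by the total count, which moved the median of all genes to -0.11, the log2 fold change was -0.011 for Fos, -0.052 for Junb and -0.11 for Nr4a2. For Nr4a2 it was -0.0048 without a filter and -0.12 with the block, and for Nr4a1 0.025 by limma voom. Without 1 library it ranged from -0.018 to 0.22 for Fos, -0.29 to 0.39 for Fosl2, -0.082 to 0.26 for Junb, -0.075 to 0.41 for Atf3, -0.18 to 0.089 for Nr4a1, -0.55 to 0.34 for Nr4a2 and -0.045 to 0.92 for Nr4a3. Fosb, Jun and Egr1 kept their sign in all 16. The correlation of Fos and Atf3 turned to -0.29 with scaling by the total count, an alternative chosen after the data were seen. The cause of these changes was not tested.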
